A study of Macaca mulatta with 8 samples.

Results

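Hyaluronan is a long sugar chain that granulosa and cumulus cells secrete after an ovulatory signal. HAS2 extrudes the chain through the plasma membrane. TNFAIP6, also called TSG-6, transfers protein chains of inter-alpha-trypsin inhibitor onto hyaluronan, and the pentraxin PTX3 ties these modified chains into a network that holds the cumulus together. HYAL1 and HYAL2 are hyaluronidases: HYAL2 is anchored at the cell surface and cuts long chains, and HYAL1 degrades the fragments in lysosomes. These 5 genes were taken as the set, and all probe sets whose platform annotation names exactly 1 of them were used. That gave 8 of 52766 probe sets on the array, and 5 of the 14132 genes with a named probe set. HAS2, TNFAIP6 and HYAL1 have 2 probe sets each, PTX3 and HYAL2 have 1 each. The main probe set of a gene is the one with the highest mean over all 8 arrays, and a second one is called the further probe set.

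The cells came from rhesus macaques in 2 groups of 4 arrays. The group VVM-GC was collected after FSH and an in vivo ovulatory stimulus with hCG, and the group PM-GC was collected after FSH stimulation without hCG, so the hormone FSH is common to both. The sample labels describe granulosa cells of cumulus-oocyte complexes, while the series design describes mural granulosa cells from the follicle wall, so which compartment the cells came from rests on the design text. The sources used here give neither the time after hCG, nor the animal behind each sample, nor a batch. A p-value here is thus set against the spread among these arrays, part of which may be technical.

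Values are log2 intensities, differences are VVM-GC minus PM-GC on the log2 scale, and a gene was called where limma's adjusted p over all 52766 probe sets was under 0.05. Array medians lay between 5.44 and 5.54 log2 units. The table holds no detection calls, so a signal below these medians cannot be told from background. The medians are no detection limit, so a signal a little above them may be background too. Of 12 measured granulosa markers, inhibin alpha (INHA) averaged 13.50 in VVM-GC and 14.07 in PM-GC, and SERPINE2 averaged 14.48 in VVM-GC and 14.55 in PM-GC, while FOXL2 and FSHR had no singly named probe set. Of these 12, 1 was higher and 9 were lower in VVM-GC, beside 10.4% higher and 11.1% lower of all genes by main probe set. CYP19A1, the aromatase that makes oestrogens, averaged 7.52 in VVM-GC and 9.60 in PM-GC, and INHBA, an activin subunit, averaged 11.12 in VVM-GC and 12.76 in PM-GC.

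The 3 assembly genes rose after hCG, HYAL2 fell, and HYAL1 did not pass the test. By probe set, 5 of 8 were higher, 1 was lower and 2 did not pass. Over the whole array 7.24% of probe sets were higher and 6.85% were lower. In all 8 member probe sets the VVM-GC and PM-GC arrays did not overlap, which was so for 19.3% of all probe sets.

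**Figure D1:**
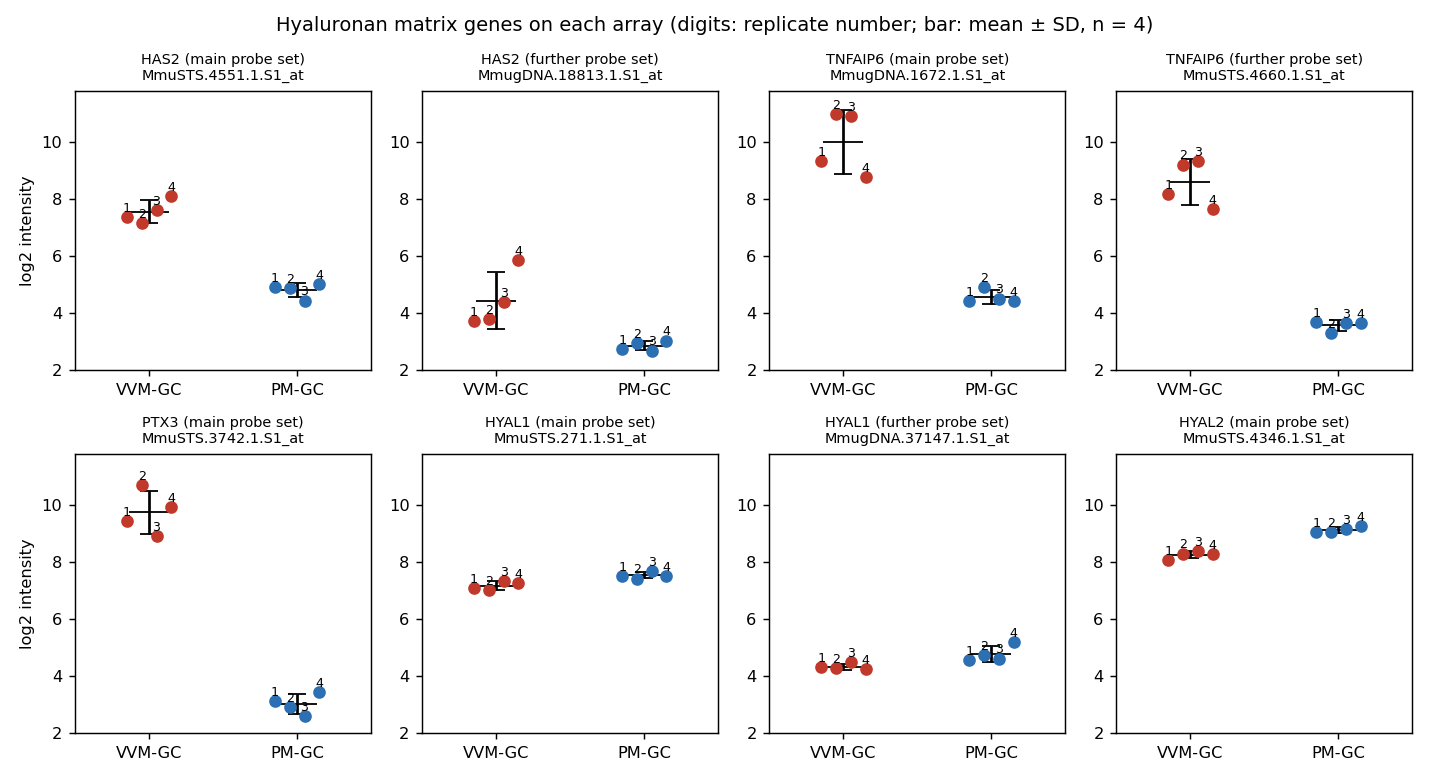
Log2 intensity of the 8 member probe sets on each array, VVM-GC in red and PM-GC in blue, with replicate numbers beside the points and bars for the mean ± SD of 4 arrays. The points of the 2 groups are far apart for TNFAIP6 and PTX3, apart for HAS2 and HYAL2, and closest for HYAL1, where the nearest arrays of the main probe set differ by 0.087.

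HAS2 makes the hyaluronan chain. Its main probe set, MmuSTS.4551.1.S1_at, read 7.37, 7.16, 7.61 and 8.10 on VVM-GC arrays 1 to 4, against 4.91, 4.88, 4.44 and 5.01 on PM-GC arrays 1 to 4. Every VVM-GC array lay above the array medians and every PM-GC array below them. The difference was 2.75 (SE 0.21, 95% interval 2.29 to 3.21, n = 4 per group), a 6.72-fold increase with limma adjusted p = 2.82e-05.

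The further HAS2 probe set, MmugDNA.18813.1.S1_at, is much dimmer. It read 3.71, 3.79, 4.41 and 5.85 on VVM-GC arrays 1 to 4, against 2.76, 2.97, 2.69 and 3.04 on PM-GC arrays 1 to 4. Only VVM-GC-4 lay above the array medians. The probe set rose by 1.58 (SE 0.40, limma adjusted p = 0.0274), with 1.11 when VVM-GC-4 was left out. This call was lost without PM-GC-1, PM-GC-2, PM-GC-3 or PM-GC-4 (adjusted p = 0.0589 to 0.0716) and with 32 added to each intensity (adjusted p = 0.171). VVM-GC-4 was the highest array for both HAS2 probe sets.

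HAS2 is 1 of 3 hyaluronan synthases. HAS1 averaged 6.04 ± 0.21 in VVM-GC and 6.11 ± 0.13 in PM-GC (SD, n = 4 each), a difference of -0.08 with a 95% interval of -0.37 to 0.22 (limma adjusted p = 0.752). HAS3 averaged 5.32 ± 0.21 in VVM-GC and 5.46 ± 0.21 in PM-GC, a difference of -0.14 with a 95% interval of -0.47 to 0.18 (limma adjusted p = 0.575). Both intervals lie below the interval of HAS2, but the difference between the synthases was not tested. HAS3 averaged below the array medians in VVM-GC and within their range in PM-GC, so its signal may be background. HAS1 averaged only a little above the medians, so the same may hold for HAS1.

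TNFAIP6 loads protein onto the hyaluronan chain. Its main probe set, MmugDNA.1672.1.S1_at, read 9.33, 10.99, 10.91 and 8.78 on VVM-GC arrays 1 to 4, against 4.41, 4.92, 4.52 and 4.43 on PM-GC arrays 1 to 4. The lowest VVM-GC array lay 3.86 above the highest PM-GC array. TNFAIP6 rose by 5.43 (SE 0.46, 95% interval 4.41 to 6.45, n = 4 per group), or 43.1-fold, with limma adjusted p = 5.39e-05.

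The further TNFAIP6 probe set, MmuSTS.4660.1.S1_at, ordered the VVM-GC arrays almost alike. It read 8.17, 9.22, 9.33 and 7.66 on VVM-GC arrays 1 to 4, against 3.70, 3.30, 3.66 and 3.66 on PM-GC arrays 1 to 4. Arrays 2 and 3 of VVM-GC were the high ones and arrays 1 and 4 the low ones for both probe sets. The increase was 5.01 (SE 0.34, limma adjusted p = 1.53e-05). The SD of the main probe set was 1.12 in VVM-GC and 0.24 in PM-GC, the widest spread of the members within VVM-GC. The difference between 3' and 5' control probe sets of ACTB, a measure of RNA integrity, was 4.47, 4.83, 5.18 and 4.61 on VVM-GC arrays 1 to 4, so the same 2 arrays had the larger values, against 4.70 to 4.80 on the PM-GC arrays. The same difference for GAPDH was 2.52, 2.68, 2.75 and 2.64 on VVM-GC arrays 1 to 4, against 2.63 to 2.79 on the PM-GC arrays. Within VVM-GC, arrays 2 and 3 again had the larger values. Between the groups the exact two-sided permutation p was 0.914 for ACTB and 0.2 for GAPDH. The part of RNA integrity in the TNFAIP6 spread was not tested.

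PTX3 joins the protein-loaded chains into a matrix. Its single probe set, MmuSTS.3742.1.S1_at, read 9.43, 10.69, 8.92 and 9.93 on VVM-GC arrays 1 to 4, against 3.10, 2.92, 2.58 and 3.43 on PM-GC arrays 1 to 4. The PM-GC mean of 3.01 was among the dimmest signals, with only 2.19% of genes lower, and the VVM-GC mean of 9.74 had 85.6% of genes below it. PTX3 rose by 6.74 (SE 0.34, 95% interval 5.98 to 7.50, n = 4 per group; limma adjusted p = 2.83e-06).

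Because the PM-GC signals of the 3 assembly genes lie near the bottom of the scale, their fold depends on the background. With 32 added to each intensity the increase was 22.2-fold for PTX3, 19.0-fold for TNFAIP6 and 3.68-fold for HAS2, against 107-fold, 43.1-fold and 6.72-fold without it. All 3 main probe sets still passed (limma adjusted p = 0.000304, 0.00164 and 0.000586).

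PTX3 is also made by leukocytes, endothelium and fibroblasts. The summed linear intensity of 12 measured leukocyte markers was 1756.5, 2670.5, 809.5 and 1415.9 on VVM-GC arrays 1 to 4, against 1783.7 to 2120.3 on the PM-GC arrays. VVM-GC-2, the highest for PTX3, also had the highest leukocyte sum, and VVM-GC-3 had the lowest of both. On VVM-GC-2, S100A8 read 600.9 and S100A9 read 414.0, for both the highest of the 8 arrays, and these values are part of its sum. Between the groups, 0 of these 12 markers were higher in VVM-GC and 1 was lower. This was CSF1R, at 129.4 to 239.4 in VVM-GC and 585.1 to 887.4 in PM-GC, a large part of the PM-GC sums. The sums of 9 endothelial markers were 468.0 to 1042.2 in VVM-GC and 505.7 to 608.3 in PM-GC. In the highest of these, on VVM-GC-1, VWF alone read 548.2, against 54.6 to 78.3 on the PM-GC arrays. The sums of 6 stromal markers were 676.4 to 1221.7 in VVM-GC and 690.8 to 798.9 in PM-GC. DCN was a large part of them, at 227.4 to 793.9 in VVM-GC and 246.7 to 284.4 in PM-GC. Of the endothelial markers 0 passed, and of the stromal markers 1 was higher, TAGLN. The sums of 4 erythrocyte markers did not overlap, at 352.2 to 1505.3 in VVM-GC and 1683.2 to 2332.9 in PM-GC, with 1 marker lower past the threshold, ALAS2. Of 9 measured markers enriched in cumulus cells, 4 were higher, 1 was lower (AMH) and 4 did not pass. The 4 higher were VCAN and the assembly genes HAS2, TNFAIP6 and PTX3, so this list is no separate measure of cumulus cells. The sums of 9 oocyte markers did not overlap, at 1347.8 to 1877.0 in VVM-GC and 941.6 to 1333.6 in PM-GC, with 1 marker higher, SOX30. Those of 3 theca markers were 275.0 to 521.4 in VVM-GC and 258.2 to 474.8 in PM-GC, with 1 lower, CYP17A1. The part of these cells in the values of PTX3 and the other members was not tested. In bulk RNA, fewer cells of a type and less RNA per cell cannot be told apart.

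**Figure D2:**
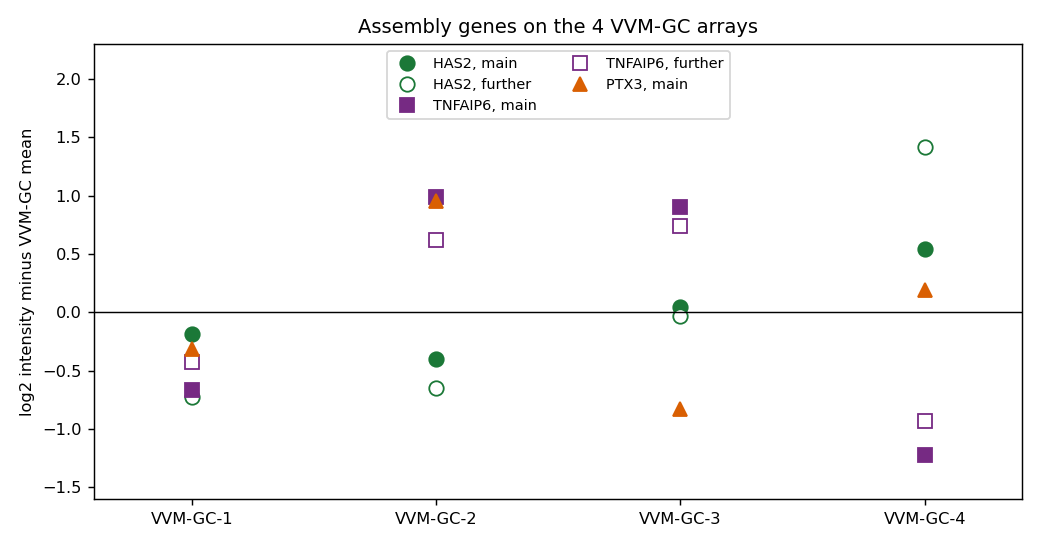
Log2 intensity minus the VVM-GC mean of each probe set on the 4 VVM-GC arrays, with filled symbols for main and open symbols for further probe sets of HAS2 (circles), TNFAIP6 (squares) and PTX3 (triangles). VVM-GC-4 is the highest array for HAS2 and the lowest for TNFAIP6, and VVM-GC-3 is the lowest for PTX3 and high for TNFAIP6.

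Within VVM-GC the 3 assembly genes did not order the arrays alike. HAS2 was highest on array 4, TNFAIP6 was lowest there, and PTX3 was highest on array 2. The range within VVM-GC was 0.94 for the main HAS2 probe set, 2.21 for the main TNFAIP6 probe set and 1.78 for PTX3, each smaller than the gap of 2.15, 3.86 and 5.49 that separated it from PM-GC.

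HYAL2 cuts long hyaluronan at the cell surface. Its single probe set, MmuSTS.4346.1.S1_at, read 8.07, 8.29, 8.39 and 8.27 on VVM-GC arrays 1 to 4, against 9.03, 9.04, 9.15 and 9.26 on PM-GC arrays 1 to 4. All 8 arrays lay well above the array medians, and the nearest arrays of the 2 groups were 0.65 apart. HYAL2 fell by 0.87 (SE 0.11, n = 4 per group, limma adjusted p = 0.000639), which is 1.82-fold lower in VVM-GC.

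HYAL1 acts on smaller fragments in lysosomes. Its main probe set, MmuSTS.271.1.S1_at, read 7.07, 7.01, 7.33 and 7.25 on VVM-GC arrays 1 to 4, against 7.50, 7.42, 7.67 and 7.51 on PM-GC arrays 1 to 4. The VVM-GC arrays were all lower, by a narrow margin. The difference was -0.36 (SE 0.11, 95% interval -0.62 to -0.11, n = 4 per group), and it missed the threshold with limma adjusted p = 0.0628.

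The further HYAL1 probe set, MmugDNA.37147.1.S1_at, lay below the array medians. It read 4.32, 4.27, 4.48 and 4.23 on VVM-GC arrays 1 to 4, against 4.55, 4.73, 4.61 and 5.20 on PM-GC arrays 1 to 4. Its difference was -0.45 (SE 0.15, limma adjusted p = 0.082). The main HYAL1 probe set passed with 32 added to each intensity (adjusted p = 0.0348), after repeated quantile normalization (0.0421), in a fit over main probe sets alone (0.0476) and, as the average of both probe sets, in a fit over genes (0.0214). HYAL1 and HYAL2 overlap each other in the reference gene table of assembly T2T-MMU8v2.0, and PTX3 overlaps VEPH1. TNFAIP6 and HYAL2 also overlap loci without a gene name there, which were not analysed here. VEPH1 averaged 4.35 in VVM-GC and 4.47 in PM-GC, both below the array medians (limma adjusted p = 0.575). Probe sequences were not used here, so which transcripts each probe set binds was not examined.

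**Figure D3:**
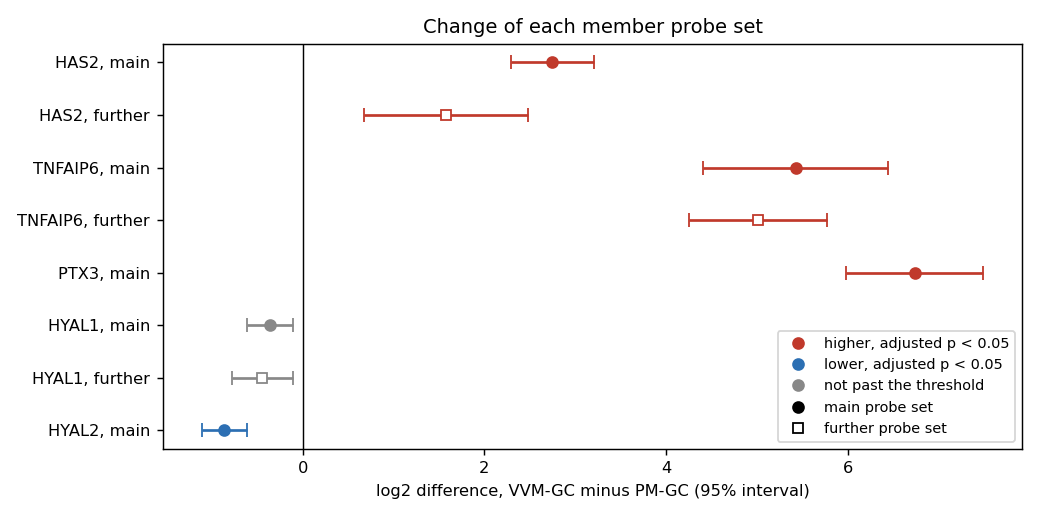
Log2 difference of VVM-GC minus PM-GC for each member probe set with its 95% interval, filled for main and open for further probe sets. Those of HAS2, TNFAIP6 and PTX3 lie to the right of 0, HYAL2 lies at -0.87, and both HYAL1 probe sets lie between -0.45 and -0.36.

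Other genes of the hyaluronidase family or of hyaluronan breakdown were measured on the same arrays. HYAL4 differed by -0.01 (limma adjusted p = 0.984) and SPAM1, the hyaluronidase of sperm, by -0.17 (adjusted p = 0.293), both at signals below the array medians. CEMIP, a hyaluronan-binding protein needed for depolymerization, differed by -0.12 (adjusted p = 0.672). It averaged 5.68 in VVM-GC and 5.80 in PM-GC, only a little above the array medians. CEMIP2, a cell-surface hyaluronidase, differed by 0.35 with a wide 95% interval of -0.65 to 1.35. HEXA, which acts on sugar fragments in lysosomes, averaged 9.57 in VVM-GC and 9.93 in PM-GC (limma adjusted p = 0.1). HYAL3 and GUSB had no singly named probe set.

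Beyond the 5 members, 36 further genes of hyaluronan synthesis, binding or breakdown, their relatives or partners were listed, and 30 were measured. Of these 30, 4 rose, 0 fell and 26 did not pass, so 13.3% were higher, beside 10.4% higher and 11.1% lower of all genes. Their median difference was -0.08, close to the median of -0.09 over all genes. The 4 that rose were VCAN, ITIH5, FN1 and THBS1.

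Versican (VCAN) is a large proteoglycan that binds hyaluronan through its N-terminal domain. Its main probe set read 13.06, 13.09, 13.62 and 13.69 on VVM-GC arrays 1 to 4, against 12.60, 12.67, 13.01 and 12.61 on PM-GC arrays 1 to 4, near the top of the scale in both groups. It rose by 0.65 (SE 0.17, limma adjusted p = 0.0352). That call was lost without PM-GC-1, PM-GC-2, PM-GC-4, VVM-GC-3 or VVM-GC-4 (adjusted p = 0.0786 to 0.0938). All 5 VCAN probe sets were higher, with increases of 0.65 to 2.88, and the dimmest of them rose the most.

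ITIH5 belongs to the family of inter-alpha-trypsin inhibitor heavy chains, some of which TNFAIP6 transfers to hyaluronan. It read 11.09, 12.81, 12.95 and 11.74 on VVM-GC arrays 1 to 4, against 9.69, 9.80, 9.74 and 9.70 on PM-GC arrays 1 to 4. VVM-GC arrays 2 and 3 were the high ones, as they were for TNFAIP6. ITIH5 rose by 2.42 (SE 0.36, limma adjusted p = 0.00153). The other heavy chains measured did not pass: ITIH1 differed by 0.70 (adjusted p = 0.3), ITIH2 by -0.23, ITIH3 by -0.08 and ITIH4 by -0.30, and AMBP, which encodes the light chain bikunin, differed by -0.24 (adjusted p = 0.177). The means of ITIH2 and ITIH3 lay below the array medians in both groups.

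Fibronectin (FN1) rose by 3.21 on its main probe set (SE 0.49, limma adjusted p = 0.0018). Its second probe set rose by only 0.88 (limma adjusted p = 0.0193), and the average of both by 2.05. Thrombospondin 1 (THBS1), a secreted protein that binds TNFAIP6, rose by 1.15 (SE 0.18, adjusted p = 0.00229), with 3 of 5 probe sets higher and changes of -0.03 to 2.29. These proteins bind matrix partners and do not make hyaluronan. CD44, the main cell-surface hyaluronan receptor, averaged 5.08 ± 0.35 in VVM-GC and 4.96 ± 0.23 in PM-GC (SD, n = 4 each), with limma adjusted p = 0.742. Both means lay below the array medians, where a signal cannot be told from background. The link proteins HAPLN1 and HAPLN3, which clamp proteoglycans to hyaluronan, differed by 0.15 (adjusted p = 0.458) and -1.15 (adjusted p = 0.0614). HAPLN1 also lay below the array medians in both groups. Aggrecan (ACAN), a proteoglycan of cartilage, differed by -0.33 on its main probe set (adjusted p = 0.274), and its other 2 probe sets were lower.

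**Figure D4:**
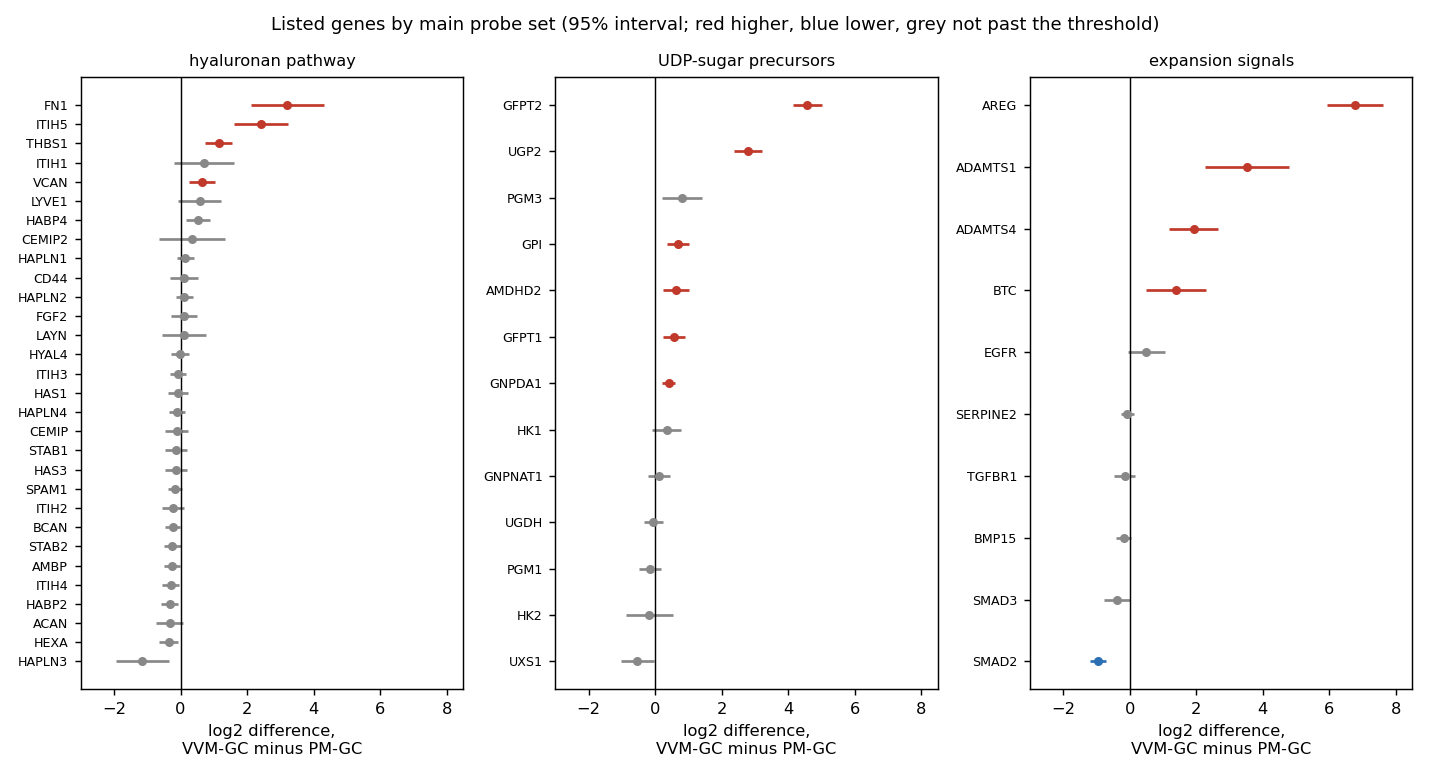
Log2 difference of VVM-GC minus PM-GC with its 95% interval for the main probe set of each listed gene, in 3 panels for the hyaluronan pathway, the UDP-sugar precursors and the expansion signals. Red marks genes higher and blue genes lower past the threshold. FN1 at 3.21 leads the first panel, GFPT2 at 4.58 the second and AREG at 6.77 the third.

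HAS2 builds the chain from UDP-glucuronic acid and UDP-N-acetylglucosamine, which are made from glucose through separate branches. Of 16 listed genes of these branches, 13 were measured, of which 6 rose, 0 fell and 7 did not pass. The share higher was 46.2%, beside 10.4% of all genes, and their median difference was 0.41. The lists were chosen with earlier results of these data known, so such shares are descriptive and test no pathway. The count of 6 was 4 after repeated quantile normalization, with an intensity trend, and without PM-GC-1, PM-GC-2, PM-GC-4 or VVM-GC-1.

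GFPT2 catalyses the first committed step towards UDP-N-acetylglucosamine. It read 11.36, 11.23, 10.80 and 10.48 on VVM-GC arrays 1 to 4, against 6.51, 6.49, 6.40 and 6.17 on PM-GC arrays 1 to 4. The nearest arrays of the 2 groups were 3.97 log2 units apart. GFPT2 rose by 4.58 (SE 0.19, limma adjusted p = 8.52e-07), or 23.9-fold. Its isoenzyme GFPT1 rose by 0.58 (SE 0.15, adjusted p = 0.0278), a call lost without PM-GC-1, PM-GC-2, PM-GC-4, VVM-GC-1 or VVM-GC-4 (adjusted p = 0.0552 to 0.0794).

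UGP2 makes UDP-glucose, the substrate for UDP-glucuronic acid. It read 13.07, 13.18, 13.01 and 12.89 on VVM-GC arrays 1 to 4, against 10.02, 10.14, 10.84 and 9.94 on PM-GC arrays 1 to 4. Its SD in VVM-GC was 0.12, so the high level was nearly the same on all 4 arrays. UGP2 rose by 2.80 (SE 0.19, limma adjusted p = 1.53e-05), and its second probe set rose by 2.98. UGDH, which oxidizes UDP-glucose to UDP-glucuronic acid, averaged 10.74 ± 0.23 in VVM-GC and 10.79 ± 0.11 in PM-GC (SD, n = 4 each), a difference with a 95% interval of -0.34 to 0.25 (adjusted p = 0.851).

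The other 3 genes that rose were GPI, AMDHD2 and GNPDA1. GPI, a glycolytic isomerase that makes the fructose 6-phosphate used by GFPT1 and GFPT2, rose by 0.69 (SE 0.15, limma adjusted p = 0.0123) on 1 of its 3 probe sets. The average of these 3 rose by only 0.21 and did not pass (adjusted p = 0.336). AMDHD2 and GNPDA1 act in the reverse direction, removing the acetyl group and the amino group from the sugar phosphates. GNPDA1 rose by 0.41 (SE 0.092, adjusted p = 0.0152) and AMDHD2 by 0.63 (SE 0.18, adjusted p = 0.0435). The AMDHD2 call was lost without any 1 of the 4 PM-GC arrays, VVM-GC-1 or VVM-GC-2 (adjusted p = 0.0516 to 0.101). PGM3 differed by 0.80 and did not pass on its main probe set (adjusted p = 0.0848), while its second probe set did.

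Signals and proteases that act on the expanding matrix formed the last list. Of 20 genes, 10 were measured, of which 4 rose, 1 fell and 5 did not pass, beside 10.4% higher and 11.1% lower over all genes. Their median difference was 0.22. PTGS2, PTGER2, EREG, GDF9 and LHCGR had no singly named probe set. AREG, an EGF-like ligand that induces expansion genes, rose by 6.77 (SE 0.37, limma adjusted p = 4.93e-06) from PM-GC signals below the array medians, and by 5.30 with 32 added to each intensity. BTC, another such ligand, rose by 1.39 (SE 0.40, adjusted p = 0.0453) on 1 of its 2 probe sets. The BTC call was lost without any 1 of the 4 PM-GC arrays or VVM-GC-2 (adjusted p = 0.0721 to 0.117).

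ADAMTS1 and ADAMTS4 are proteases that cleave versican. ADAMTS1 read 10.19, 9.11, 6.93 and 9.19 on VVM-GC arrays 1 to 4, against 4.92, 5.82, 5.34 and 5.25 on PM-GC arrays 1 to 4. VVM-GC-3 was the low array of its group. ADAMTS1 rose by 3.52 (SE 0.56, limma adjusted p = 0.00235), and by 4.16 without VVM-GC-3. Its second probe set rose by 2.74 (limma adjusted p = 0.0127). There VVM-GC-3 read 5.03, below the array medians and only 0.02 above the highest PM-GC array. ADAMTS4 rose by 1.92 (SE 0.33, adjusted p = 0.00367) on its main probe set, while its second probe set differed by -0.23 (adjusted p = 0.319), and the average of both rose by 0.84. SMAD2, which transmits signals of activin and of the oocyte factor GDF9, fell by 0.95 (SE 0.11, adjusted p = 0.000383), with 2 of its 4 probe sets lower.

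Genes with the most similar pattern were found by the root mean square difference over the 8 arrays, after each gene was set to its own PM-GC mean. For HAS2 the nearest were SERPINA6 at 0.23, UNC13B at 0.25 and SRGN at 0.26 log2 units. For PTX3 they were MOCOS at 0.47, AREG at 0.50 and HSD11B1 at 0.75. For TNFAIP6 they were NPTX2 at 0.66, PCOLCE2 at 0.71 and CLIC4 at 0.74. Nearness by this measure can come mainly from a similar group difference: CLIC4 was highest on VVM-GC-4, where TNFAIP6 was lowest. NPTX2 encodes a neuronal pentraxin, and PCOLCE2 an enhancer of collagen processing. For HYAL2 the nearest were PGBD2, GAS2L3 and CYP2A24, each at 0.090, and for HYAL1 DPF2 at 0.048, MTSS1 at 0.071 and LRFN3 at 0.079. PGBD2 and CYP2A24 averaged below the array medians in VVM-GC. The 5 members themselves were left out of this search.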

How the data were processed

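The intensity values were deposited by the authors. The submitters' processing notes name RMA (robust multi-array average) and Affymetrix Expression Console, without versions. The deposited intensities are on a linear scale, so log2 was taken and nothing else was changed. Per the labels' protocols, small amounts of total RNA were amplified linearly before labelling. Of 52865 rows, 99 array controls were left out. GEO's platform annotation gave 1 symbol to 24956 of the 52766 probe sets, several to 361 and none to 27449, and 24616 of the first were matched by gene ID to the reference gene table, whose symbols were used.

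VVM-GC was compared with PM-GC in limma 3.58.1 (lmFit, eBayes; R 4.3.3), with Benjamini-Hochberg adjustment over all probe sets, and the procedure was tested on simulated data. The number of arrays, 4 per group, limits the precision. Named genes are the members, the listed genes past the threshold (others for their role), and the 3 nearest in pattern to each member. Members, lists and tests were chosen with earlier results of these data known. Alternatives were an added intensity of 32, a filter on dim probe sets, other scaling, probe-set averages, an intensity trend, the replicate number as a block and leaving out each array.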

Additional observations from a re-analysis of the deposited data

Results flagged for a closer look

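Of 46 groups of 4 arrays examined over the members and the listed genes past the threshold, 2 held an array far from the other 3, and chance alone gives about 1 in 20. The further TNFAIP6 probe set read 3.30 on PM-GC-2, below the 3.66 to 3.70 of the other PM-GC arrays. ADAMTS4 read 6.66 on PM-GC-3, above the 6.23 to 6.27 of the other PM-GC arrays.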

How the results depend on the processing

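The main probe sets of HAS2, TNFAIP6, PTX3 and HYAL2 kept their direction and stayed past the threshold under all 16 alternatives run. HYAL1 passed under 4 of 16: at -0.41 as an average of probe sets, -0.36 in a fit over main probe sets only, -0.30 with 32 added and -0.40 after repeated quantile normalization. The further HAS2 probe set did not pass with 32 added (0.51). Leaving out 1 array gave changes of 1.11 to 1.82 for it, 2.57 to 2.88 for the main HAS2 probe set, 5.10 to 5.84 for TNFAIP6, 6.42 to 7.01 for PTX3, -0.91 to -0.80 for HYAL2 and -0.42 to -0.31 for HYAL1. The further probe sets of HAS2 and HYAL1 were removed by the filter on dim probe sets and gave no value there. The count of hyaluronan pathway genes past the threshold, 4, was 8 with averaged probe sets (5 higher, 3 lower) and 7 after repeated quantile normalization (5 higher, 2 lower), where HABP4, HAPLN3 and HEXA passed under both and ACAN under the first. It was 3 to 4 with 1 array left out, where that of the UDP-sugar precursors was 4 to 6 and that of the expansion signals 4 to 5. The cause was not tested. The labels do not say whether equal replicate numbers pair the arrays. Deviations of same-numbered arrays correlated at -0.01 to 0.15, and 1 of 4 VVM-GC arrays correlated best with its own number. With so few arrays, these correlations cannot decide whether same-numbered arrays shared an animal or a batch. With the replicate block, 2770 genes passed in place of 3031, and of the named calls those of BTC (adjusted p = 0.0607) and GFPT1 (adjusted p = 0.0555) were lost. Over the 15 listed genes past the threshold, 207 of 240 values kept their call, 33 lost it and 0 reversed. Beyond the losses already given, AMDHD2 (adjusted p = 0.0693), BTC (0.0977) and VCAN (0.0524) did not pass with 32 added, BTC (0.0526), GFPT1 (0.0663) and GNPDA1 (0.116) after repeated quantile normalization, AMDHD2 (0.0528) and GNPDA1 (0.0531) with an intensity trend, and BTC (0.0929) as an average of its probe sets. Signals near or under the array medians limit the folds of PTX3, TNFAIP6, HAS2 and AREG.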
